A study of Mus musculus with 9 samples.

Results

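The 35 genes described here encode the scaffold proteins, kinase subunits, receptor auxiliary subunits and adhesion molecules that build the postsynaptic side of brain synapses, together with 2 presynaptic neurexins that pair with them. They were taken from a list of names, and all 35 were found by symbol among the 49315 genes of the count table. All 35 also passed the filter on low counts, which left 18492 genes to test, with 211 to 40087 counts per gene and library. Messenger RNA was sequenced from whole brains of male C57BL/6J mice of WT genotype at 2 ages. The young group held 5 mice, 3 months old by the sample labels (3 or 4 months in the description of the study), and the old group held 4 mice that were 33 months old. No treatment or transgene is named for either age, and old replicate 2 is not analysed here. The transcripts were measured to ask whether messenger RNA accounts for the protein and modification differences that the study followed in the ageing brain.

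Excitatory synapses receive glutamate at the postsynaptic density, a protein layer under the membrane in which membrane-associated guanylate kinases (MAGUKs) hold receptors, SAPAP proteins link the MAGUKs to SHANK proteins, and Homer proteins cross-link the SHANKs. Calcium/calmodulin-dependent kinase II (CaMKII) is both an enzyme and an abundant structural part of this layer, and its activation during calcium entry is needed for lasting strengthening of the synapse. Adhesion molecules such as the neuroligins and leucine-rich repeat proteins reach across the cleft to presynaptic partners, neurexins among them, and variants in several of these genes are linked to autism and intellectual disability.

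The 9 libraries held 14229259 to 21150439 counts each. Levels are given as CPM (a gene's count scaled to the same library total) after TMM scaling, which evens out differences in library composition, and age differences as log2 fold changes of old over young mice, so that a negative value is a lower level in old mice. A gene was called when edgeR's quasi-likelihood test gave it a Benjamini-Hochberg adjusted p under 0.05 over all genes tested. Markers of neurons were present in every library, and their summed level was 6636 to 7106 CPM in young and 6330 to 6557 CPM in old mice, with 5 of 10 markers called lower and 0 called higher. The 5 were Stmn2, Tubb3, Map2, Nefm and Nefh. Not called were Rbfox3 (log2 fold change -0.025), Snap25 (-0.040), Syt1 (0.093), Eno2 (-0.086) and Nefl (-0.20). The ages overlapped in the summed markers of excitatory neurons (1016 to 1231 and 1009 to 1187 CPM, 1 of 6 called lower) and of inhibitory neurons (1008 to 1100 and 1009 to 1298 CPM, 1 of 6 called higher). Summed markers of endothelial cells were 220.4 to 231 CPM in young and 254 to 293 CPM in old mice, with 4 of 6 called higher. Those of oligodendrocyte precursors were 117 to 125 and 100.3 to 106 CPM, with 1 of 4 called lower. That 1 was Gpr17 (log2 fold change -0.83), from 38.8 to 21.9 CPM in the means. Pdgfra (0.051), Cspg4 (-0.11) and Neu4 (-0.31) were not called, so the lower sum does not describe all 4 markers. In whole tissue, fewer cells of a type and less RNA per cell cannot be told apart.

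To compare genes with each other, levels were divided by the length of each gene's annotated exons and are given per kilobase. Camk2a, the alpha subunit of CaMKII, stood first at 237 ± 22.1 CPM per kilobase in young mice (SD, n = 5), and no young mouse overlapped with the next gene. Camk2b, the beta subunit, followed at 80.6 ± 3.94, the SAPAP linker Dlgap3 at 75.9 ± 3.90 and the scaffold Shank1 at 70.2 ± 3.90, and neighbours in this order overlapped between mice. Nlgn2, the neuroligin of inhibitory synapses, reached 52.1 ± 1.61 CPM per kilobase, apart from both of its neighbours.

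At the lower end were Homer2 at 5.31 ± 0.463, the adhesion protein gene Lrfn2 at 4.89 ± 0.305 and Nlgn1, the neuroligin of excitatory synapses, at 4.61 ± 0.383 CPM per kilobase. These 3 also overlapped from each gene to the next. Dlg4, which encodes the scaffold PSD-95, had a level of 42.5 ± 1.44 CPM per kilobase and the rank of 6 among the 35, but the rank of 2 in the TPM values, transcripts scaled by length and library, deposited by the authors, whose gene lengths are not given in the sources used here. Its place in the order therefore depends on the length assigned to it.

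**Figure D1:**
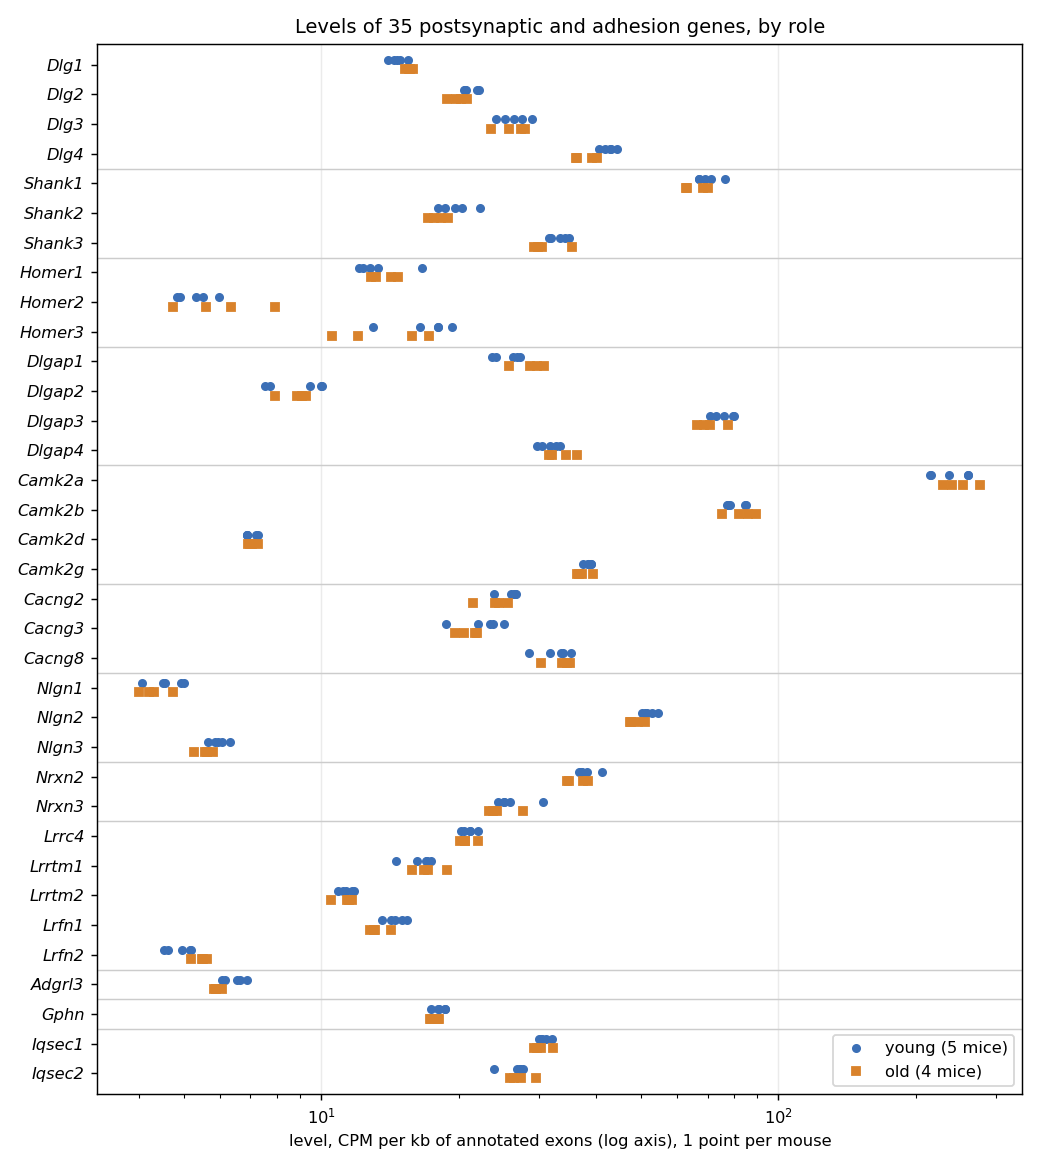
Level of each of the 35 genes in every mouse, in CPM per kilobase of annotated exons on a log axis, with circles for the 5 young and squares for the 4 old mice and lines between role groups. Camk2a lies above every other gene at both ages, and for most genes the points of the ages overlap.

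Among the 35 genes, 1 was called with age, Dlg4, and it was lower in old mice. That is 2.86% of the members, beside 11.0% of all genes tested (4.83% lower and 6.20% higher in old mice), so the members were not called more often than genes at large. No member passed the threshold of the study, which also asks for an absolute log2 fold change over 0.58 and which 2.68% of all genes passed. At an unadjusted p under 0.05 there were 11 members (31.4%), 8 lower and 3 higher in old mice, beside 26.0% of all genes, 12.4% lower and 13.6% higher. Of the 8983 genes whose mean level lay within the range of the members, 14.7% were called, and 7.80% were called as lower.

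The log2 fold changes of the members ran from -0.28 to 0.21, with a median of -0.036 beside a median of -9.2e-05 over all genes tested. In 23 members the estimate was negative and in 12 it was positive. On log2(TPM + 1) the median of all genes was itself -0.14, and 11 of the 12 positive estimates were negative on that scale, whereas with library medians set equal Camk2d was the 1 estimate of the 35 that changed sign. Standard errors were 0.034 to 0.13 with a median of 0.050, smaller than the median of 0.084 over all genes. The 95% interval of the fold change stayed within 1.25-fold in either direction for 33 of the 35 members, the exceptions being Homer2 and Homer3. For those 33 genes the bounds ran from -0.26 to 0.29 on the log2 scale. Each interval holds for its own gene in this fit, and the set of intervals does not have 95% coverage jointly. On log2(TPM + 1), with its median of -0.14 over all genes, the Dlg4 estimate of -0.33 lay outside these bounds.

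**Figure D2:**
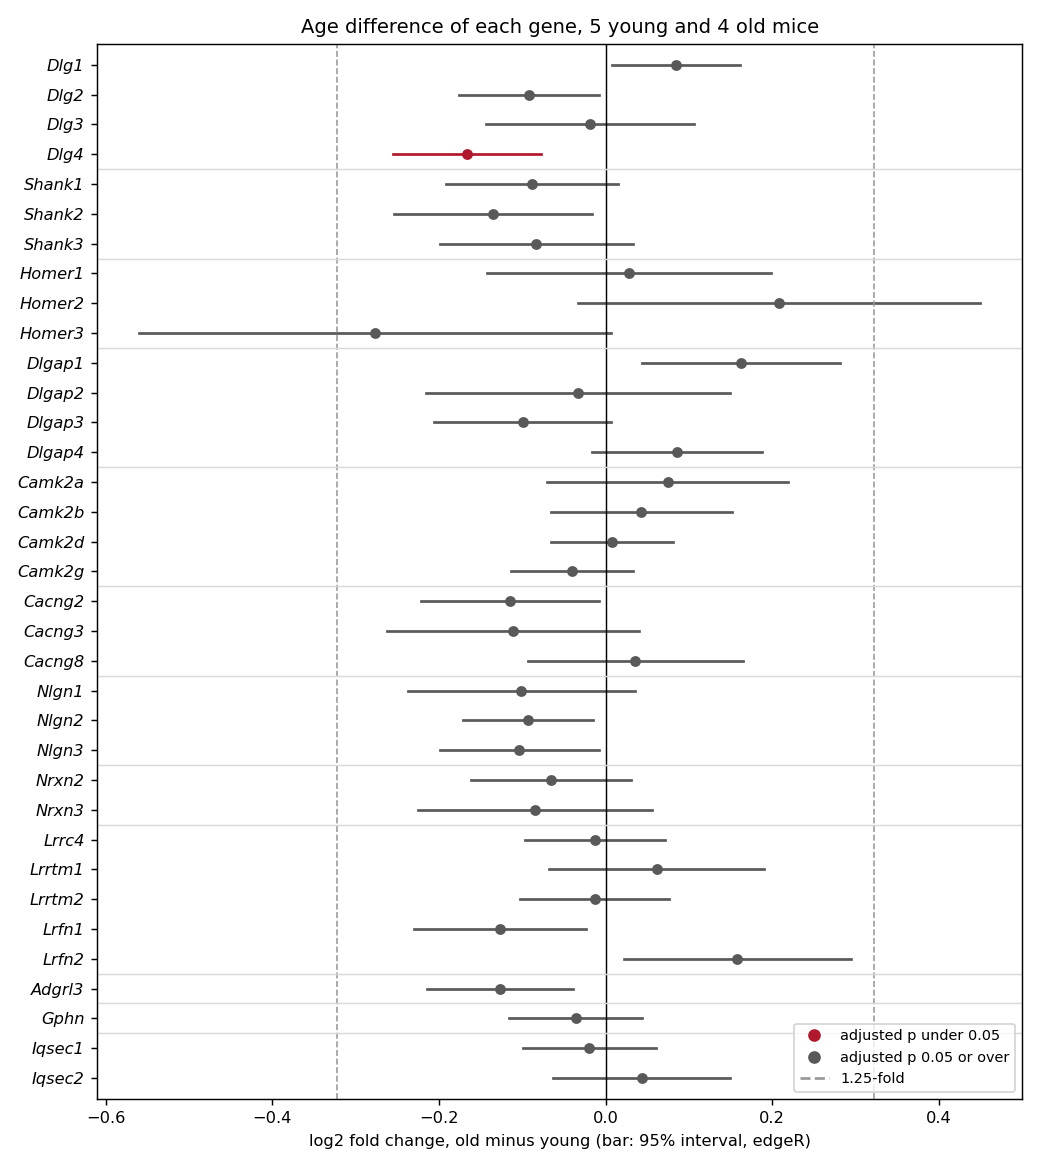
Log2 fold change of old over young mice for each of the 35 genes, as points with 95% intervals from edgeR, with the called gene in red and dashed lines at 1.25-fold. Dlg4 is the only gene in red, and the bars of Homer2 and Homer3 are the ones that reach past a dashed line.

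The MAGUKs anchor glutamate receptors and ion channels to the postsynaptic density, and 1 of these 4 genes was called. Dlg4 lies on chromosome 11 of GRCm38, 70016942 to 70047522, on the plus strand. The young mice had 570.0, 588, 538, 569 and 553 CPM and the old mice 519, 481, 478 and 531 CPM. Every old mouse lay below every young mouse, and the log2 fold change was -0.17 (SE 0.042, adjusted p = 0.0205), from 564 ± 19.1 to 502 ± 26.9 CPM. The adjusted p rose over the threshold when young replicate 1 (0.0526), old replicate 3 (0.0569) or old replicate 4 (0.0599) was left out. It was also over the threshold with the replicate number as a block (0.0548), a fit without young replicate 2. On log2(TPM + 1), where the median of all genes was -0.14, the log2 fold change was -0.33 (adjusted p = 0.366 by limma), and with library medians set equal on that scale it was -0.19 (0.0224). The summed neuron markers given above were lower in every old mouse as well, while those of excitatory and of inhibitory neurons overlapped, and their part in this difference was not tested.

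The other MAGUK genes did not pass the adjusted threshold. Dlg1, which encodes SAP97, gave a log2 fold change of 0.084 (SE 0.036, adjusted p = 0.154), with young mice at 150.2 to 166 and old mice at 163 to 170.2 CPM. Dlg2 gave a log2 fold change of -0.091 (SE 0.039, adjusted p = 0.154), at 335 to 360.4 and 307 to 339 CPM, and Dlg3 gave -0.019 (SE 0.058, adjusted p = 0.878), at 141 to 169 and 137 to 163 CPM. The estimate of Dlg1 was opposite in sign to those of its 3 paralogs in this fit, but not on log2(TPM + 1), where Dlg1 gave -0.078 beside a median of -0.14 for all genes, and Dlg3 changed sign under some alternatives, for example to 0.018 without young replicate 2 and 0.030 without old replicate 4. The ages overlapped for these 3 genes.

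Adgrl3 encodes latrophilin-3, an adhesion G protein-coupled receptor that binds teneurins and FLRT proteins across the cleft, and it lies on chromosome 5 of GRCm38, 81020138 to 81825133, on the plus strand. The young mice had 108, 122, 109.6, 118 and 116 CPM and the old mice 103, 105, 107 and 105 CPM. All old mice were below all young mice, though old replicate 4 and young replicate 1 differed by less than 0.1 CPM. The log2 fold change was -0.13 (SE 0.041, adjusted p = 0.0634) and so did not pass the threshold, except when young replicate 1 was left out (0.0423). Of its annotated exonic bases, 8.91% are shared with a gene on the opposite strand, and reads of the pair cannot be told apart because the strand setting of the counting is not given in the sources used here.

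Lrfn2, a leucine-rich repeat adhesion protein that binds PSD-95, was the 1 member with every old mouse above every young mouse. The young mice had 14.8, 15.9, 14.5, 16.5 and 16.6 CPM and the old mice 17.7, 16.6, 17.6 and 18.0 CPM, with old replicate 3 just above young replicate 5. The log2 fold change was 0.16 (SE 0.064, adjusted p = 0.129), which did not pass the threshold. Together, 2 members were lower and 1 was higher without overlap between the ages. That is 8.57% in either direction, beside 12.6% of all genes tested (6.08% lower and 6.50% higher). Among genes whose mean level lay within the range of the members, 16.6% did not overlap.

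Because Dlg4 and Adgrl3 were the members that stood lower in every old mouse, a RefSeq promoter window of each is shown. It runs from 250 bases before to 50 bases after the most upstream RefSeq start on GRCm38.p6. Both windows lie inside the gene spans given above, which come from a different annotation (GENCODE) with starts further upstream. The bases before the RefSeq start are therefore within the gene in that annotation. The capitals mark GC boxes, the letters GGGCGG on either strand, searched for in all windows. Both genes have 3 annotated starts, and counts per gene do not tell which start was used.
Dlg4 (chr11:70016953-70017252, plus strand): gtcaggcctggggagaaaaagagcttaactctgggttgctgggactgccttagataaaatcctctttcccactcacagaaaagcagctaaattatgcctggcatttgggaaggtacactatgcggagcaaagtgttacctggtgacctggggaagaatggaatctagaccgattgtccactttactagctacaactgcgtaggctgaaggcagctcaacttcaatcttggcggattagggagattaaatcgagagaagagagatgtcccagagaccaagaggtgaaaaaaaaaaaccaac
Adgrl3 (chr5:81020321-81020620, plus strand): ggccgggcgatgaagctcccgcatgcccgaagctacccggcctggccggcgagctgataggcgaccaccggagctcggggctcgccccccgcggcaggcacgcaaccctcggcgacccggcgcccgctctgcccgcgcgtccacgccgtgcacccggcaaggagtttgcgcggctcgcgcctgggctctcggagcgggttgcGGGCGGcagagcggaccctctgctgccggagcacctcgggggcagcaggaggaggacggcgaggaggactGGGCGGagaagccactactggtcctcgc
The Dlg4 window held 0 GC boxes at a GC content of 46.3%, and the Adgrl3 window held 2 at 75.3%. RefSeq windows were listed for 25 of the 35 members, and 20 of their 43 windows (46.5%) held a GC box, beside 35.7% of 32851 windows of all genes. The CRE core CGTCA was in 11.6% of member windows and 20.8% of all windows, and TATAAA was in 9.30% and 13.6%, each read on both strands. These matches describe the letters alone.

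The SAPAP proteins, encoded by Dlgap1 to Dlgap4, bind the guanylate kinase domain of MAGUKs on one side and SHANKs on the other. Dlgap1, on chromosome 17 of GRCm38, 69969073 to 70821413, had 479.8, 487, 423, 469 and 431 CPM in young mice and 529.8, 511, 460.4 and 549.8 CPM in old mice. Only old replicate 4 fell within the young range, and the log2 fold change was 0.16 (SE 0.055, adjusted p = 0.0761). It was called as higher in old mice without old replicate 4 (0.0220) and with DESeq2's Wald test (0.0475). Dlgap3, the most abundant of the 4 per length, had 345, 359, 330.3, 361 and 321 CPM in young and 351, 299.9, 311 and 320.3 CPM in old mice.

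For Dlgap3 the log2 fold change was -0.10 (SE 0.050, adjusted p = 0.225), opposite in sign to that of Dlgap1 (except on log2(TPM + 1), where Dlgap1 gave -0.0032), and old replicate 1 lay within the young range. Dlgap4, at 251 to 282 CPM in young and 267 to 306 CPM in old mice, gave a log2 fold change of 0.086 (SE 0.048, adjusted p = 0.278). Dlgap2, the least abundant of the 4 per length, had 46.3 to 61.7 CPM in young and 48.8 to 56.8 CPM in old mice, with a log2 fold change of -0.033 (SE 0.085, adjusted p = 0.848). With all 9 mice, edgeR called none of the 4 SAPAP genes.

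The SHANK proteins are large scaffolds deeper in the density, and SHANK3 loss underlies Phelan-McDermid syndrome in people. All 3 estimates were negative and none was called. Shank1 had 705 to 803 CPM in young and 660.5 to 737 CPM in old mice, with a log2 fold change of -0.088 (SE 0.048, adjusted p = 0.269). Shank2 had 194 to 239.6 CPM in young and 184 to 204 CPM in old mice, with a log2 fold change of -0.14 (SE 0.056, adjusted p = 0.139). The level of Shank2 was the lowest of the 3 per length and that of Shank1 the highest. Shank3 had 289.6 to 320.0 CPM in young and 269 to 326 CPM in old mice, with a log2 fold change of -0.083 (SE 0.054, adjusted p = 0.362). Its highest value of all was in old replicate 1, and without that mouse it was called as lower in old mice (0.0433).

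Homer proteins tie SHANKs to group I metabotropic glutamate receptors, and Homer3 and Homer2 had the largest standard errors of the 35 genes. Homer3, a gene known for its expression in cerebellar Purkinje cells, had 66.4, 44.6, 62.1, 56.6 and 61.8 CPM in young mice and 54.3, 36.3, 59.3 and 41.4 CPM in old mice. Young replicate 2, old replicate 3 and old replicate 5 were the 3 lowest, and the ages overlapped, with a log2 fold change of -0.28 (SE 0.13, adjusted p = 0.204). The same 3 mice had the 3 lowest summed levels of 6 cerebellar markers, 473, 313 and 378 CPM, against 556 to 693 CPM in the other mice, and 1 of the 6 markers was called as lower in old mice. With these markers as a covariate, a fit added after the data were seen, the Homer3 estimate was 0.044. The part of the cerebellar markers in the Homer3 difference was not tested.

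Homer2 had 67.1, 75.3, 61.0, 69.6 and 62.1 CPM in young mice and 70.7, 80.3, 59.7 and 100.1 CPM in old mice, with old replicate 5 above all others, and gave a log2 fold change of 0.21 (SE 0.11, adjusted p = 0.266). Without old replicate 5 its log2 fold change was 0.061. With the cerebellar markers as a covariate, an alternative chosen after the data were seen, its estimate was -0.016. Homer1 gave a log2 fold change of 0.028 (SE 0.079, adjusted p = 0.862), and young replicate 4 was its highest library at 199 CPM. In addition, 25.4% of the exonic bases of Homer3 are shared with Ddx49 on the opposite strand.

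**Figure D3:**
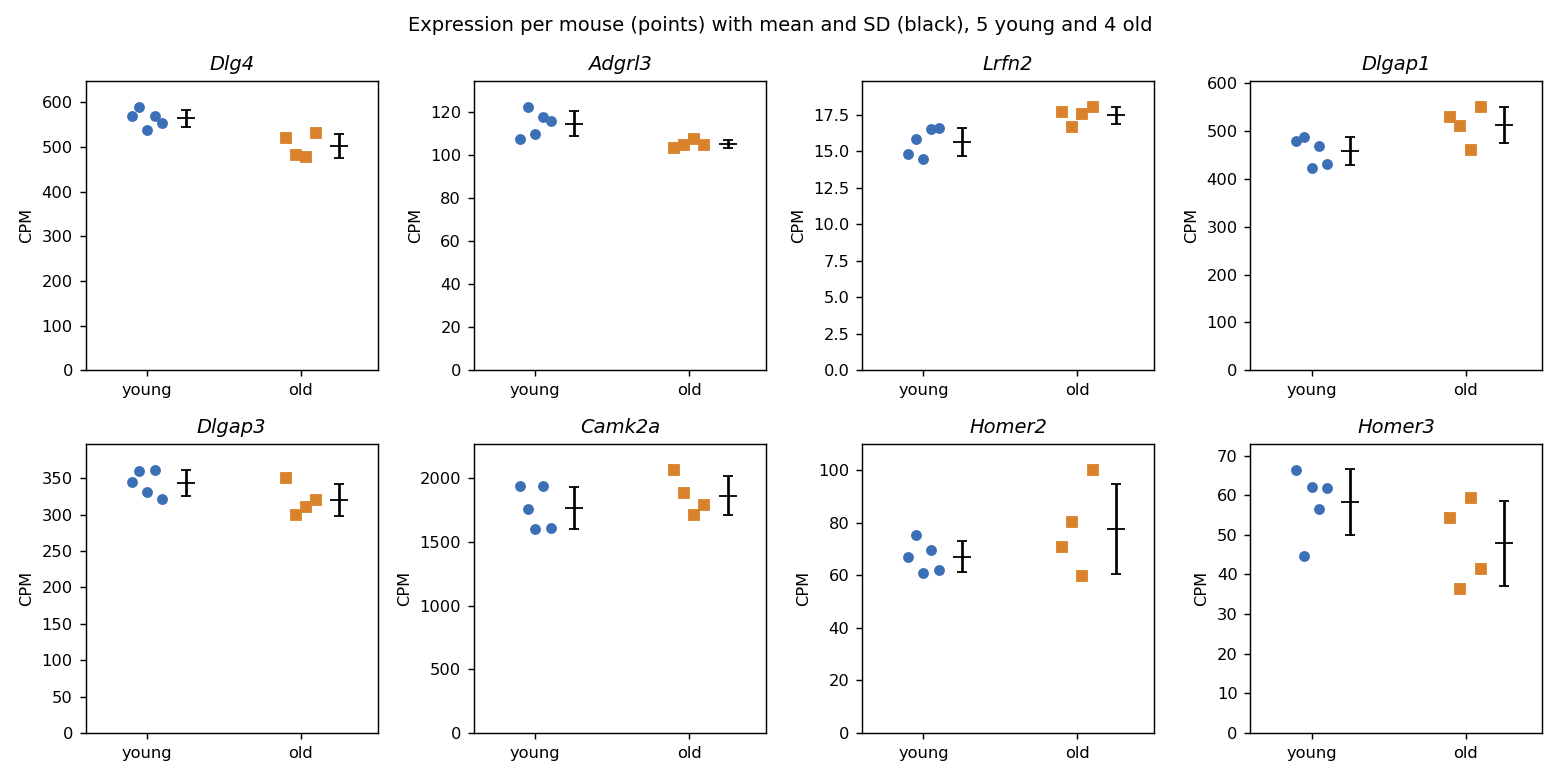
CPM of 8 of the genes in each mouse, with axes from 0 and black marks for the mean and SD of 5 young and 4 old mice. In CPM, Dlg4 and Adgrl3 are lower and Lrfn2 higher in every old mouse, while the ages overlap for Dlgap1, Dlgap3, Camk2a, Homer2 and Homer3.

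The 4 CaMKII genes encode the alpha, beta, delta and gamma subunits that assemble into the holoenzyme, and none was called. Camk2a had 1937, 1762, 1603, 1936 and 1611 CPM in young mice and 2065, 1889, 1714 and 1787 CPM in old mice, with a log2 fold change of 0.075 (SE 0.067, adjusted p = 0.531). The ages overlapped, although the highest value of all was in old replicate 1. Camk2b had 704 to 776 CPM in young and 687 to 814 CPM in old mice, with a log2 fold change of 0.043 (SE 0.050, adjusted p = 0.641). Camk2d, the least abundant subunit per length, had 154 to 164 CPM in young and 156 to 163 CPM in old mice, with a log2 fold change of 0.0078 (SE 0.034, adjusted p = 0.914). Camk2g had 239.5 to 249.6 CPM in young and 232 to 252 CPM in old mice, with a log2 fold change of -0.040 (SE 0.034, adjusted p = 0.502). The 95% interval of Camk2d, -0.065 to 0.080, was the narrowest of the 35.

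Transmembrane AMPA receptor regulatory proteins (TARPs) carry AMPA receptors to the synapse and slow their gating. Cacng2, the gene of stargazin, gave a log2 fold change of -0.11 (SE 0.050, adjusted p = 0.163), with 132 to 147 CPM in young and 118 to 141 CPM in old mice. Young replicate 2 stood below the other young mice and inside the old range. Cacng3 had 52.1 to 69.9 CPM in young and 54.6 to 61.0 CPM in old mice, with a log2 fold change of -0.11 (SE 0.070, adjusted p = 0.348). Cacng8, a TARP of the hippocampus, had 66.7 to 82.6 CPM in young and 71.1 to 82.3 CPM in old mice, with a log2 fold change of 0.036 (SE 0.060, adjusted p = 0.756). None of the 3 TARP genes was called.

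Neuroligins are postsynaptic partners of the neurexins, and the 3 neuroligin estimates were all negative and close to one another, with none called. Nlgn1 had 54.4 to 67.3 CPM in young and 53.7 to 63.8 CPM in old mice, with a log2 fold change of -0.10 (SE 0.063, adjusted p = 0.344). For Nlgn2 the values were 292 to 315 CPM in young and 274 to 296 CPM in old mice, with a log2 fold change of -0.093 (SE 0.036, adjusted p = 0.121). Nlgn3, found at both kinds of synapse, had 52.4 to 58.6 CPM in young and 48.8 to 53.6 CPM in old mice, with a log2 fold change of -0.10 (SE 0.045, adjusted p = 0.158). Of the exonic bases annotated for Nlgn3, 41.2% are also annotated to Gm21986 on the same strand, so its count is less certain.

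Among the neurexins, Nrxn2 had 506 to 568 CPM in young and 476 to 530.2 CPM in old mice, with a log2 fold change of -0.066 (SE 0.045, adjusted p = 0.390). Nrxn3 gave a log2 fold change of -0.085 (SE 0.065, adjusted p = 0.452), and its old mice were at 294 to 348 CPM. Nrxn3 was highest in young replicate 2, at 385 CPM, while the others of that age had 308 to 326 CPM. With markers of the olfactory bulb as a covariate, added after the data were seen, Nrxn3 (0.0152) and Nlgn2 (0.0455) were called as lower in old mice beside Dlg4. The 4 olfactory bulb markers summed to 14.9 to 59.2 CPM in young and 12.7 to 126 CPM in old mice with 0 called by edgeR, and 1 of them, Tbx21, was at 0 in a library.

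The leucine-rich repeat proteins Lrrc4, Lrrtm1, Lrrtm2, Lrfn1 and Lrfn2 organise excitatory contacts, the LRRTMs by binding neurexins. Lrfn1 had a log2 fold change of -0.13 (SE 0.048, adjusted p = 0.110) and 53.1 to 60.5 CPM in young and 50.2 to 55.7 CPM in old mice, and its estimate was opposite in sign to that of Lrfn2, except on log2(TPM + 1), where Lrfn2 gave -0.0045. Lrrc4 (-0.013), Lrrtm1 (0.061) and Lrrtm2 (-0.013) lay within 0.1 of 0 on the log2 scale, with adjusted p of 0.876, 0.570 and 0.881. Lrrc4, whose product binds netrin-G2, had 80.9 to 87.9 CPM in young and 80.3 to 88.0 CPM in old mice. Lrrtm1 had 44.1 to 52.7 CPM in young and 47.8 to 57.2 CPM in old mice and Lrrtm2 65.6 to 70.9 CPM in young and 63.4 to 70.2 CPM in old mice.

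Gphn encodes gephyrin, the scaffold of glycine and GABA type A receptors at inhibitory synapses. Its young mice had 67.7, 67.6, 69.8, 70.0 and 65.3 CPM and its old mice 67.6, 64.8, 65.3 and 68.0 CPM, with the ages overlapping in part and a log2 fold change of -0.036 (SE 0.037, adjusted p = 0.596). Iqsec1 and Iqsec2 encode exchange factors that activate the small GTPase ARF6 near the density, and they gave a log2 fold change of -0.019 (SE 0.037, adjusted p = 0.790) and of 0.043 (SE 0.049, adjusted p = 0.632), respectively. The young mice had 347 to 371 and the old mice 339.6 to 373 CPM of Iqsec1, and 166 to 193 and 181 to 206 CPM of Iqsec2. Iqsec2 was lowest in young replicate 5, at 166 CPM.

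Within a family, the share of each paralog compares genes inside a library and does not depend on library scaling. Shares were taken per length in 7 families with 24 genes, and they are a description without a test. The shares of a family sum to 100%, so that a lower share of 1 paralog comes with a higher share of others and the shares are not separate observations. In 5 of the 24 shares the ages did not overlap, all in the MAGUK and SAPAP families. Shares were not taken in other gene families, so whether this count is unusual cannot be told. Dlg4 made up 40.3, 41.2, 40.5, 39.9 and 40.9% of MAGUK expression in young mice and 38.1, 37.3, 38.5 and 38.5% in old mice, so that every old mouse was lower. Dlg1 made up 14.0% ± 0.662 in young and 15.7% ± 0.586 in old mice, with every old mouse higher. The shares of Dlg2 and Dlg3 overlapped.

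In the SAPAP family, Dlgap3 held 52.6, 53.2, 54.2, 53.6 and 53.7% in young mice and 51.6, 48.8, 51.3 and 48.2% in old mice, every old mouse being lower. Dlgap1 held 18.5, 18.2, 17.5, 17.6 and 18.2% and 19.7, 21.0, 19.2 and 20.9%, every old mouse being higher. Dlgap4 held 22.2% ± 0.320 and 23.6% ± 0.749, also without overlap, though its ages overlapped in shares of raw counts. The Dlg1, Dlg4, Dlgap1 and Dlgap3 shares did not overlap in shares of raw counts or of TPM either. The size of a share depends on the lengths assigned to the genes, as the rank of Dlg4 does. In shares of TPM, Dlg4 formed 61.7% and Dlg1 9.60% of the MAGUK family in young mice.

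The other 5 families kept overlapping shares. Of CaMKII expression, Camk2a formed 65.2% ± 1.89 in young and 66.2% ± 1.03 in old mice. In shares of TPM it formed 60.5% ± 2.05 and 61.7% ± 1.15. Camk2b formed 22.2% ± 1.11 in young and 22.0% ± 0.843 in old mice. Of TARP expression, Cacng8 formed 40.1% ± 1.59 in young and 42.6% ± 1.82 in old mice. Of neuroligin expression, Nlgn2 formed 83.1% ± 0.586 in young and 83.2% ± 0.855 in old mice. Of SHANK expression, Shank1 formed 57.1% ± 1.20 in young and 57.3% ± 1.57 in old mice. The largest shift in mean share, 6.43 percentage points, was that of Homer3, from 47.4% ± 5.16 to 41.0% ± 7.76. The young mice ranged from 40.9 to 51.6% and the old mice from 33.9 to 49.1%, so the ages overlapped.

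**Figure D4:**
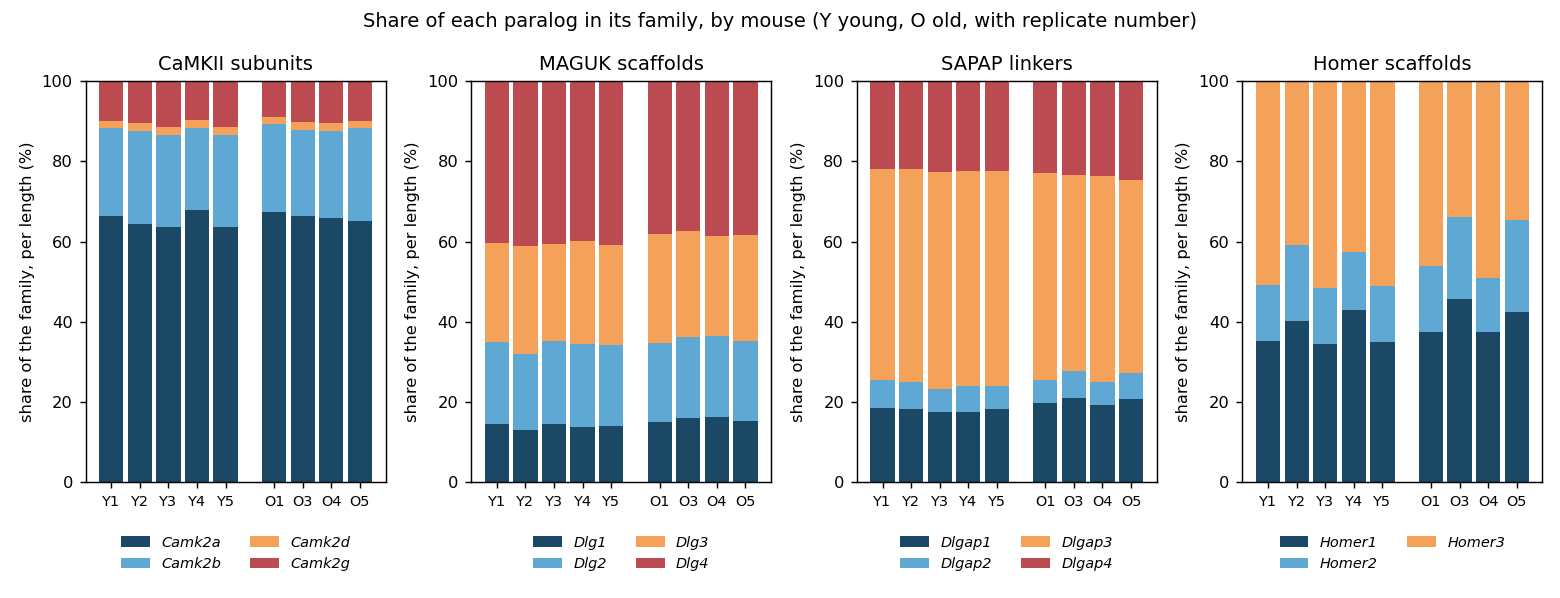
Share of each paralog in its family per length, in percent, as 1 stacked bar per mouse (Y young, O old, with replicate number) for 4 families. The Dlg4 and Dlgap3 segments are smaller and the Dlg1 and Dlgap1 segments larger in every old mouse, and the Homer bars vary within each age.

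For comparison, 92 other genes of the same compartments were read from the same fit, among them further scaffolds, TARPs, neurexin partners, teneurins and synaptic organisers. Of these, 20 (21.7%) were called as lower and 0 as higher in old mice, beside 4.83% lower and 6.20% higher over all genes. Among genes whose mean level lay within the range of the members, 7.80% were called as lower. The list was chosen with earlier results of these data known, so its share of calls is not independent evidence. The median log2 fold change of the 92 genes was -0.069. Of them, 21 (22.8%) were lower without overlap between the ages, beside 6.08% of all genes and 826 of 8983 genes in the members' range. At an unadjusted p under 0.05, 38 of the 92 were lower and 3 higher. DESeq2's Wald test called 25 as lower and 0 as higher. Without old replicate 4, 12 were lower and 2 higher. On log2(TPM + 1) 2 were called, and 21 with library medians set equal on that scale. The part of the lower neuron markers in these differences was not tested either.

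The lowest p among these others belonged to Arc, an activity-induced gene whose product promotes AMPA receptor endocytosis, with 185 to 221 CPM in young and 135 to 154 CPM in old mice and a log2 fold change of -0.45 (SE 0.053, adjusted p = 1.93e-04). Tenm1, a teneurin and so of the family that latrophilins bind, gave a log2 fold change of -0.42 (SE 0.053, adjusted p = 2.87e-04). Cacng4, a TARP like Cacng2, gave a log2 fold change of -0.28 (SE 0.042, adjusted p = 0.00101), and Lin7b, a small scaffold that binds MAGUK complexes, gave -0.27 (SE 0.059, adjusted p = 0.00967). Of the exonic bases of Lin7b, 24.4% are shared with genes on the opposite strand, and for Tenm1 the share is 8.25%.

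Other adhesion genes among the 10 with the smallest p were Clstn3 (-0.22), Slitrk1 (-0.26), Slitrk4 (-0.22), Igsf9b (-0.19) and Adam23 (-0.20), and the remaining gene was the scaffold Magi1 (-0.16), all with adjusted p from 0.00263 to 0.0125. Whether the members differed from these other genes was not tested.

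**Figure D5:**
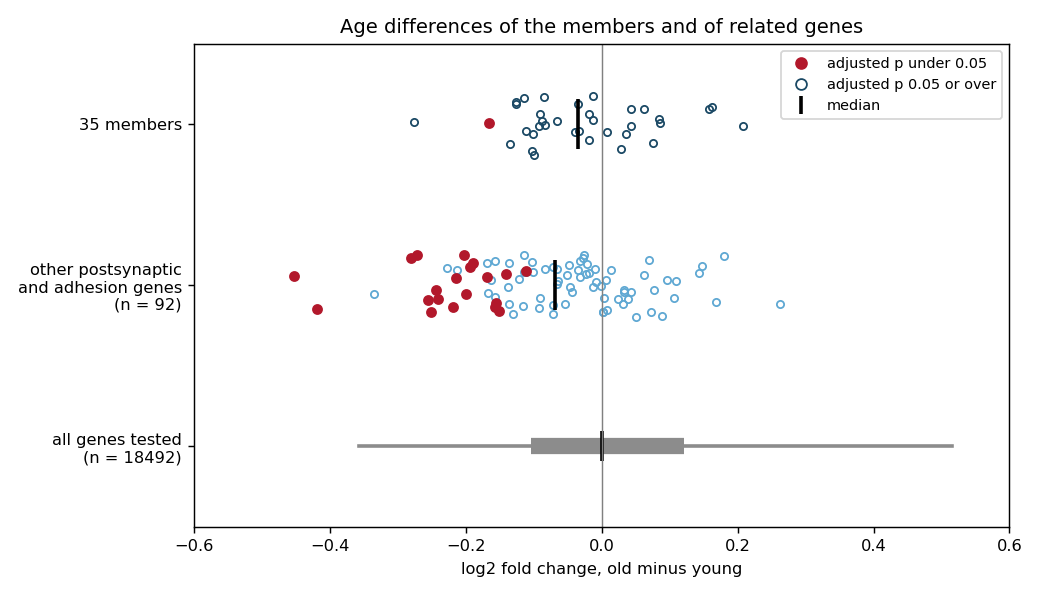
Log2 fold change of old over young mice for the 35 members, for 92 other postsynaptic and adhesion genes and for all 18492 genes tested, with genes called at an adjusted p under 0.05 in red. For all genes the thick bar spans the 25th to 75th and the thin line the 5th to 95th percentile, and the black marks are medians of -0.036, -0.069 and -9.2e-05.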

How the data were processed

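Whole-brain RNA of 9 mice was selected for polyA and sequenced. As the study's methods describe, the authors trimmed reads with Trimmomatic 0.36, aligned them to Ensembl GRCm38 with STAR 2.5.2b and counted uniquely mapped exonic reads per gene with featureCounts 1.5.2, and DESeq2 is named in the submitters' processing notes. The deposited counts are whole numbers without normalization. A second deposited table, for 17994 genes, holds a signal that the authors obtained by dividing counts by 1 size factor per library, and the deposited TPM were scaled by the authors with gene lengths not given in the sources used here. Each table held 1 column of per-sample values that matched no sample here and was not used. The strand setting of the counting is not given in the sources used here.

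Genes were kept with edgeR 4.0.16 filterByExpr (minimum count 10, minimum total 15), scaled with TMM and compared with the two-sided quasi-likelihood test with Benjamini-Hochberg adjustment over 18492 genes, in R 4.3.3. Only the age entered the fit. Intervals came from the estimate, its standard error and the test's degrees of freedom. Libraries of one age differed by more than sampling noise (chi-square per degree of freedom at least 4.05), so each was 1 replicate. The labels say nothing of litter or batch, and the adjusted p-values judge each age difference against the spread between these mice. Alternatives used DESeq2 1.42.0, limma 3.58.1, other size factors, filters and units, thresholds, a replicate block and each mouse left out in turn, and 2 marker covariates and TPM with equal library medians were added after the data were seen. The edgeR fit was tested on simulated data.

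Symbols, positions and exon lengths came from GENCODE M21, which paired 48970 gene IDs with symbols and left 345 without. All members may be named. The plan gave full values to members with an adjusted p under 0.05 and those whose ages did not overlap. It then named the highest and lowest level of each role group. Of 92 other genes, it named the called ones with the 10 smallest p. Beyond that plan, fold changes and adjusted p are given for the remaining members as well. Members and lists were chosen with earlier results of these data known. A comparison of carboxy-terminal residues was planned and not run, since no protein table was used here. Some results among the other genes are not reported here.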

Additional observations from a re-analysis of the deposited data

Results flagged for a closer look

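Within an age, a library was singled out when its gap to the nearest other library exceeded the 95% limit of Dixon's test, on log2 CPM. This was done for the 35 members and the 10 other named genes at both ages, which gave 90 combinations, and 4 passed where chance at 1 in 20 gives 4.5. Cacng2, the gene of stargazin, was low in young replicate 2, at 132 CPM where the others of its age had 143 to 147 CPM, with a gap of 0.763 of the group's range. Nrxn3 was high in the same mouse, at 385 CPM against 308 to 326 CPM, with a gap of 0.750 of the range. Iqsec2 was low in young replicate 5, at 166 CPM against 187 to 193 CPM, with a gap of 0.789. Cacng4 was high in old replicate 5, at 47.5 CPM against 44.6 to 44.9 CPM, with a gap of 0.916, and this library still lay below every young mouse.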

How the results depend on the processing

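The number of members called was 1 with all 9 mice, and it was 2 with DESeq2's Wald test (Dlg4 lower, Dlgap1 higher), 2 with every gene that had a count (Dlg4 and Homer3 lower), 3 with olfactory bulb markers as a covariate, and 0 on log2(TPM + 1), on log2(TPM + 0.1), at an adjusted p under 0.01 and with the fold threshold of 0.58. Leaving out a mouse gave 0 to 2 members. The replicate numbers were shared by both ages, and the deviations of same-numbered mice correlated at 0.170, -0.118, 0.0884 and -0.0243. Only replicate 1 passed the limit of 0.1 set for pairing. Young replicates 1, 3, 4 and 5 were closest to old replicates 1, 4, 4 and 4. These values show no pairing by number across all the mice, but they cannot exclude it. With a replicate block 0 members and 17 of the other genes were called, and Dlg3 (0.017) and Dlgap2 (0.018) turned positive. The other 92 genes gave 20 calls, 2 on log2(TPM + 1), 2 on log2(TPM + 0.1), 8 at an adjusted p under 0.01 and 0 with the fold threshold, 14 to 20 without a mouse and 21 on log2(TPM + 1) with library medians set equal. The median of the members was -0.036 and became -0.20 on log2(TPM + 1) and -0.20 on log2(TPM + 0.1), where the median of all genes moved to -0.14 and -0.16, and with library medians set equal it was -0.058. On those TPM scales these estimates turned negative, in this order of pseudocounts: Dlg1 (-0.078, -0.080), Homer1 (-0.12, -0.13), Dlgap1 (-0.0032, -0.0032), Dlgap4 (-0.079, -0.080), Camk2a (-0.089, -0.089), Camk2b (-0.12, -0.12), Camk2d (-0.15, -0.16), Cacng8 (-0.12, -0.13), Lrrtm1 (-0.10, -0.10), Lrfn2 (-0.0045, -0.0048) and Iqsec2 (-0.12, -0.12). With cerebellar markers as a covariate, Homer1 (-0.043), Homer2 (-0.016), Homer3 (0.044), Camk2d (-0.0086) and Cacng8 (-0.020) changed sign, and with olfactory bulb markers Camk2b (-0.0054), Cacng8 (-0.022) and Iqsec1 (0.00088) did. Camk2d was -0.0027 with every gene that had a count and -0.010 on TPM with equal medians. Without a mouse, the estimates that changed sign ranged from -0.052 to 0.030 for Dlg3, -0.0096 to 0.12 for Homer1, -0.085 to 0.014 for Dlgap2, -0.0068 to 0.024 for Camk2d, -0.0046 to 0.080 for Cacng8, -0.041 to 0.0071 for Lrrc4 and -0.027 to 0.019 for Lrrtm2. The causes were not tested. Dlg4 had adjusted p from 0.0154 to 0.0599 without a mouse and from 0.0020 to 0.37 under the other alternatives. With 5 and 4 mice, some age differences of the size of the intervals given would not be called, and counts per gene cannot show a change in isoforms.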
